A study of Mus musculus with 7 samples.

Results

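The genes described here are the cullin scaffolds, the adaptors that bring substrates to them, and the TRIM ubiquitin ligases. They were chosen by symbol alone, as every gene of the deposited table named Asb, Klhl, Kbtbd, Fbxo, Fbxl, Fbxw, Cul or Trim followed by a digit. The muscle atrophy genes Fbxo32, Fbxo30, Fbxo40, Trim63, Trim54 and Trim55 were left out by that rule. This gave 140 of the 12239 genes in the table, with 31 Klhl, 30 Trim, 23 Fbxo, 16 Asb, 16 Fbxl, 8 Cul, 8 Fbxw and 8 Kbtbd members. One of them, Fbxl12os, is a noncoding transcript named for its place beside Fbxl12 on the opposite strand, and the annotated genes do not overlap.

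RNA of the tibialis anterior (TA), a fast-twitch hind leg muscle, was sequenced in 4 wild-type (WT) and 3 C2-/- libraries. All mice were males on the FVBN background, aged 5 to 6 months by the labels. C2-/- mice lack fast myosin-binding protein C because a Neo cassette between LoxP sites replaced exons 2 to 22 of Mybpc2. The allele is constitutive, so the gene was missing in every cell and throughout growth. The series description gives more C2-/- animals than the 3 libraries analysed here. The labels number the libraries without linking them to animals, but the study counts as many mice as libraries in each group.

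Ubiquitin ligases pick the proteins that the proteasome will destroy. In the cullin-RING family a cullin holds a RING protein at one end and a substrate receptor at the other. BTB-Kelch proteins (Klhl and Kbtbd) join Cul3, F-box proteins (Fbxo, Fbxl and Fbxw) join Cul1 through Skp1, and SOCS-box proteins such as Asb join Cul5 through elongins B and C. TRIM proteins carry the RING and the substrate-binding part in a single chain. Striated muscle makes several receptors that other tissues hardly make. Klhl40 and Klhl41 stabilise thin filament proteins, and their loss in humans causes nemaline myopathy.

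The promoters of 6 members are shown because these are the genes known from muscle that were called as deposited, after the GC correction and without any 1 library, as described below. Klhl33, Klhl40, Asb10, Asb16 and Asb18 were lower in C2-/- and Asb15 was higher. Each sequence runs from 250 bases before to 50 bases after the transcription start, 5′ to 3′ on the gene's own strand, from RefSeq on GRCm38.p6. The windows lie at chr14:50897434-50897733 (minus strand) for Klhl33, chr9:121777357-121777656 (plus) for Klhl40, chr5:24540929-24541228 (minus) for Asb10, chr11:102268501-102268800 (plus) for Asb16, chr1:90014617-90014916 (minus) for Asb18 and chr6:24527894-24528193 (plus) for Asb15. Capitals mark the E-box CAGCTG, the MEF2 motif, and TATAAA on either strand.
Klhl33: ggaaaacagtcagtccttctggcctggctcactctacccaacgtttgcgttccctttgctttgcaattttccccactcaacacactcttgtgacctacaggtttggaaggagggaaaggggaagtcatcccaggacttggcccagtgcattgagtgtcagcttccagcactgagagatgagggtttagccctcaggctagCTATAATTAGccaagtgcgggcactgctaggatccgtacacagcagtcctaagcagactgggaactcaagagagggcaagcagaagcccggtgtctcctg
Klhl40: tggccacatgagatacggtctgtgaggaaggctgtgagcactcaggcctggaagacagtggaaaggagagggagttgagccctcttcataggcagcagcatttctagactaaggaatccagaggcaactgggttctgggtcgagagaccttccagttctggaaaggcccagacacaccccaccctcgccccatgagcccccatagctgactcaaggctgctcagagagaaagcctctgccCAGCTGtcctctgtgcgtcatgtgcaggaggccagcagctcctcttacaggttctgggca
Asb10: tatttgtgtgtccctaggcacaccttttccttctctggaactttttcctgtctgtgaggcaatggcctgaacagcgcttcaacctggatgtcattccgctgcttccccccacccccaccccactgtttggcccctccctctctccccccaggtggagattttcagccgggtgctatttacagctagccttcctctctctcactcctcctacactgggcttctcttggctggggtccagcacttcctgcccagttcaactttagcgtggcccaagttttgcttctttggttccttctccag
Asb16: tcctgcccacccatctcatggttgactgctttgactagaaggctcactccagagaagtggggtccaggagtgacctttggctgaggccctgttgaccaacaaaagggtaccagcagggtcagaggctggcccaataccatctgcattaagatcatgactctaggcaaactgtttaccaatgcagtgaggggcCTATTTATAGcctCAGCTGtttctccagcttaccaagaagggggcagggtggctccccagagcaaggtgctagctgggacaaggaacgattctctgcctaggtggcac
Asb18: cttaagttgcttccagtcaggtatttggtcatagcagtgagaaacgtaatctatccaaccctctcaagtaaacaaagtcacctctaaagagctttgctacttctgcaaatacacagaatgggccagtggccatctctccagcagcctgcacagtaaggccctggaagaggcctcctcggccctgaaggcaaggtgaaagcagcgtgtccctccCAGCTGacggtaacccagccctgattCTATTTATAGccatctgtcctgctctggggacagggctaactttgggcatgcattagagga
Asb15: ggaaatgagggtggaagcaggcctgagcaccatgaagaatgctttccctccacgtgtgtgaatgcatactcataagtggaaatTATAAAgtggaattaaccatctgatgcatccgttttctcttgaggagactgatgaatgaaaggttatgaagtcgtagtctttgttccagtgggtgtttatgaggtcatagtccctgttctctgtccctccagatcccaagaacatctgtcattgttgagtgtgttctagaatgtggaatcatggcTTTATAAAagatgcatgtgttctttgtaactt
The E-box is the site of myogenic factors such as MyoD, and MEF2 is a second regulator of muscle genes. The Klhl33 window held the MEF2 motif, the Klhl40 window held the E-box, and the Asb16 and Asb18 windows held both. The Asb15 window held TATAAA and neither of the others, and the Asb10 window held no match. A TATAAA can lie inside a MEF2 motif, as it does in Asb16 and Asb18. The promoter table held 114 of the 140 members. Of these, 26 (22.8%) had the E-box and 8 (7.0%) had the MEF2 motif, against 16.1% and 3.3% of all 27025 promoters. Among 19 members known from striated muscle, listed with their values below, 17 were in the table, and 7 of these (41.2%) had the MEF2 motif. The MEF2 motif was in 3 of 26 promoters of members that fell, 0 of 24 that rose and 5 of 64 that were not called. The E-box was in 5 of the 26, 7 of the 24 and 14 of the 64. These are letter matches and not measured binding sites.

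Several features of the libraries move with genotype, so the values below are read beside them. Their part in those values was not tested. WT replicates 1 to 3 had 14929214 to 15464499 reads in the table, WT replicate 4 had 4683853, and the C2-/- libraries had 2613277 to 4917936. The 3 reads taken as the detection floor were 0.195 to 1.12 CPM (counts per 1e6 reads) across libraries. Mybpc2 lay between 12.41 and 12.85 in WT and between -0.47 and 1.67 in C2-/- on the deposited log2 CPM scale, a difference of -11.82 (adjusted p = 4.85e-07, limma). The fast fibre genes summed to 199000 to 233000 CPM in WT and 104000 to 126000 CPM in C2-/-, with 6 of 10 lower. The fibroblast genes summed to 468 to 794 CPM in WT and 1520 to 1870 CPM in C2-/-, with 5 of 6 higher and 1 lower. After the correction for transcript GC content described below, 1 fast fibre gene was higher and 2 were lower, with a median difference of 0.05 in place of -0.97, and 3 fibroblast genes were higher and 0 lower. In whole muscle, fewer cells of a type and less RNA per cell cannot be told apart.

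A gene was called when its adjusted p was under 0.05 and its fold change was over 1.5 in limma's test across all genes. By this rule 62 of the 140 members (44.3%) were called, 28 higher and 34 lower in C2-/-, against 45.2% of all genes. Over all genes 20.2% were called higher and 25.0% lower. Without WT replicate 1 or 3, 23 members were higher and 22 lower, so the larger number of falls was not kept. The median difference of the members was -0.13 (log2), beside -0.14 over all genes. In 66 members (47.1%) the C2-/- values did not overlap the WT values, against 49.3% of all genes. The members therefore changed about as often as the table as a whole. Another 3 members, Cul4a, Asb11 and Fbxo45, passed the p threshold below the 1.5-fold limit. Centring each library on its median, which moved the median of all genes from -0.14 to 0.02, gave 37 members higher and 26 lower, and the balance turned likewise over all genes, with 3040 higher and 2594 lower.

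**Figure D1:**
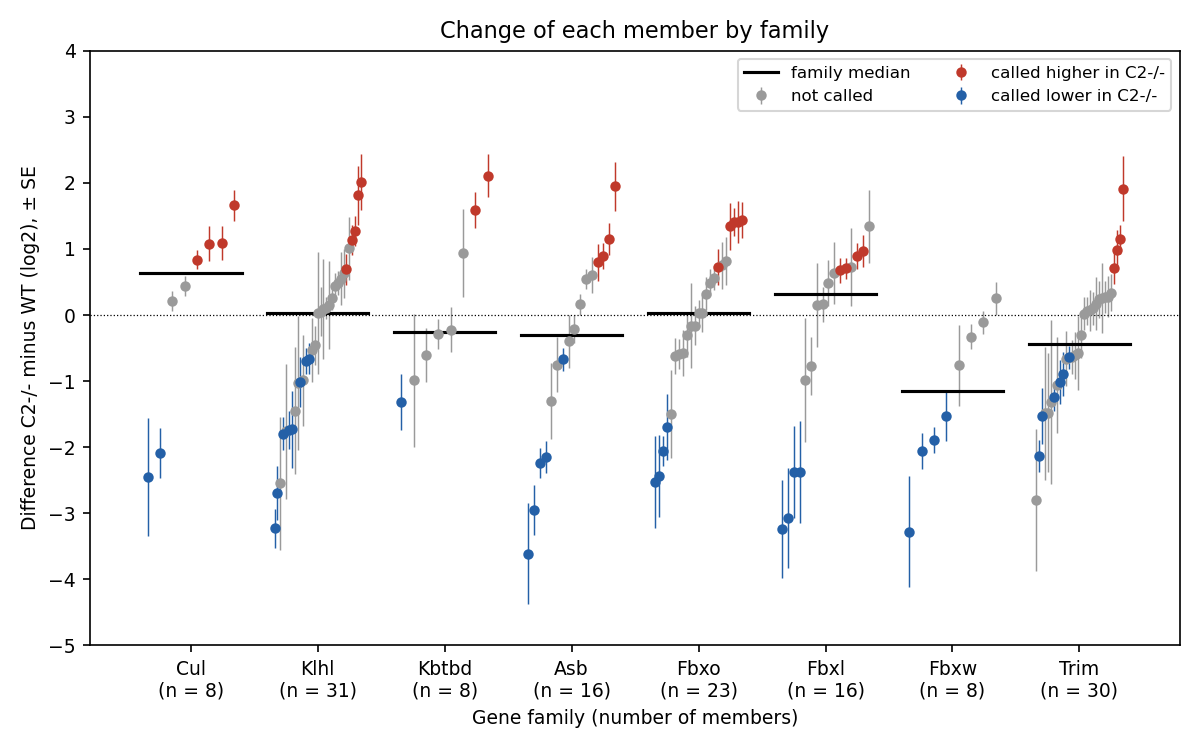
Difference between C2-/- and WT (log2, vertical axis) for each of the 140 members, grouped by family along the horizontal axis; bars are standard errors, black lines are family medians. Members called higher (red, 28) and lower (blue, 34) occur together in 7 of the 8 families, and the Fbxw family has called members on the lower side only.

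The direction of a member's change followed the base composition of its transcripts. Transcript GC content had a median of 43.9% in the 28 members that rose and 57.5% in the 33 members that fell and have an annotated GC content. Of these, 2 of 28 and 30 of 33 had a GC content of at least 50%. Spearman's rho between GC content and difference was -0.70 across 139 members and -0.68 across all genes. Members share the same 7 libraries, so this is a description without a p-value.

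Each library was therefore also corrected for GC content. Its curve of log2 value on transcript GC, a spline with 5 degrees of freedom, was replaced by the mean curve of the 7 libraries. After this correction 32 of 139 members (23.0%) were called, 19 higher and 13 lower, against 20.6% of all genes (12.3% higher and 8.33% lower). By family the share then called ran from 12.5% (Cul, Kbtbd and Fbxw) to 37.5% (Asb). Of the 62 members called as deposited, 18 were still called in the same direction and 0 in the opposite direction, while 14 others were newly called. Genotype and GC response cannot be told apart in these libraries. Differences below are as deposited, and for called genes given with a value below, the GC-corrected value or call is given too.

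**Figure D2:**
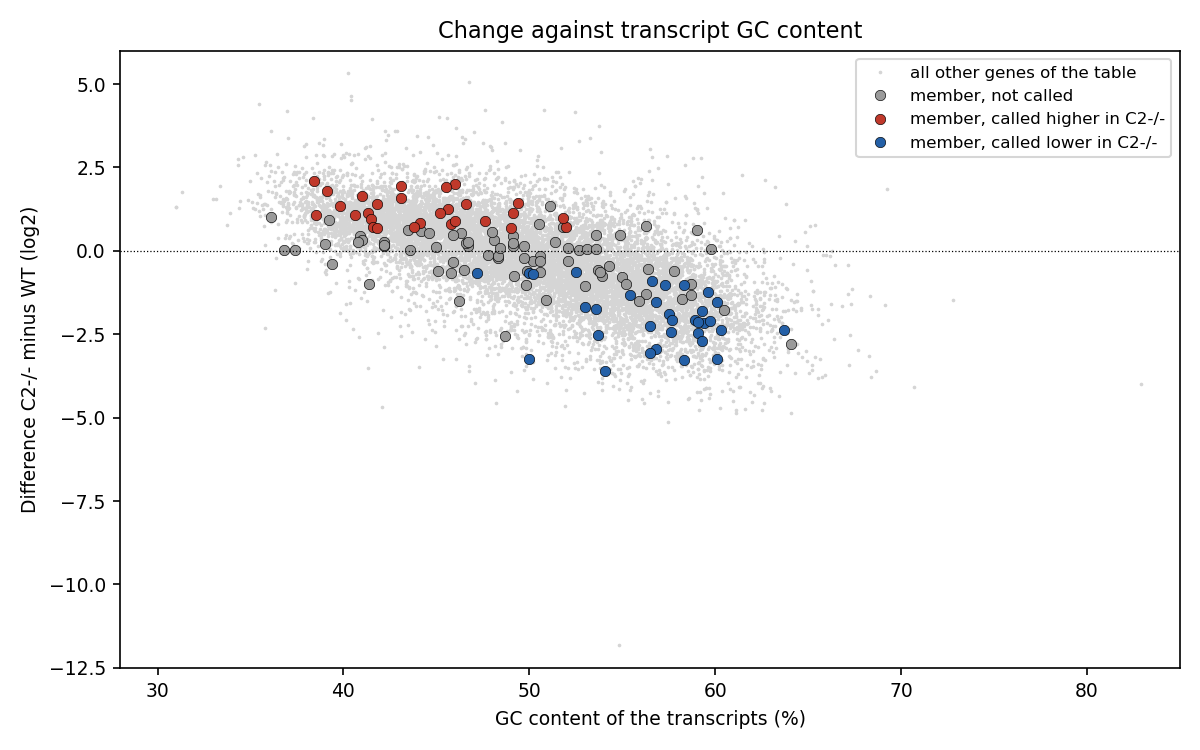
Difference between C2-/- and WT (log2, vertical axis) against transcript GC content (percent, horizontal axis) for all genes with an annotation (light points) and the 139 members with one (circles). Members called higher (red) have a median GC content of 43.9% and members called lower (blue) one of 57.5%.

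**Figure D3:**
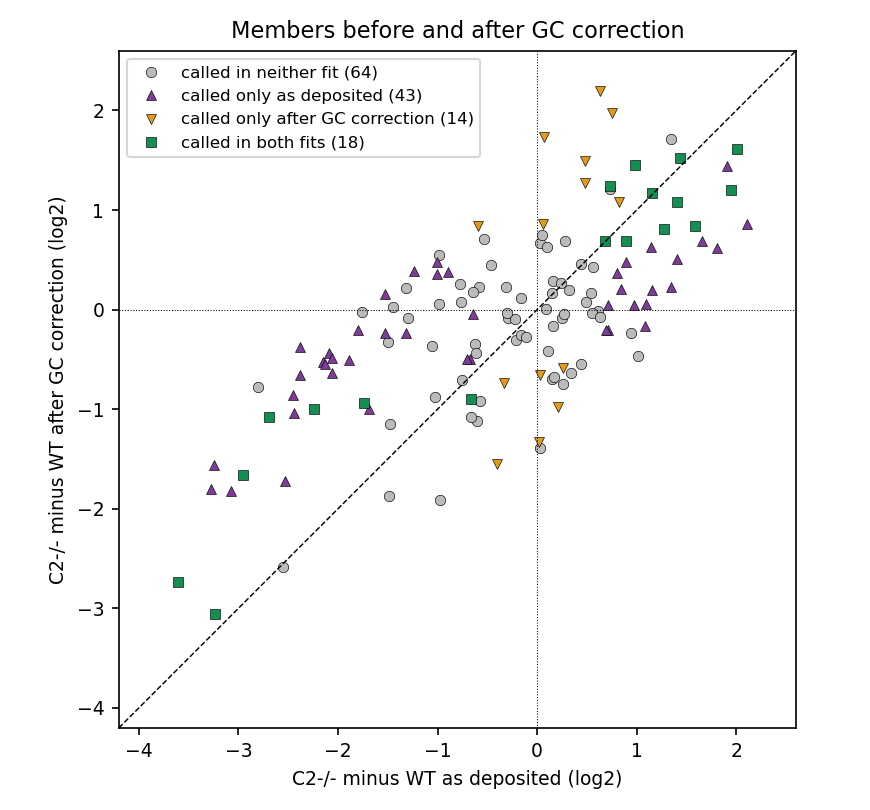
Difference between C2-/- and WT (log2) of each member as deposited (horizontal axis) and after GC correction (vertical axis); the dashed line marks equal values. Squares are the 18 members called both ways, upward triangles the 43 called only as deposited, downward triangles the 14 called only after correction and circles the 64 called in neither fit.

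A total of 15 members were called as deposited, after GC correction and in each of the 7 fits that left out 1 library. The 6 that fell were Klhl33, Klhl40, Klhl22, Asb10, Asb16 and Asb18. The 9 that rose were Klhl5, Klhl20, Kbtbd7, Asb13, Asb15, Fbxl17, Fbxo22, Fbxo33 and Trim24. No cullin and no Fbxw member was among them. Quantile normalization ended the call of 1 of the 15, Fbxl17, at a difference of 0.47. Below, these genes are referred to as the 15.

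Cullins form the backbone of the ligases. Of the 8 cullins in the table, 6 were called (75.0%, against 45.2% of all genes). They were 4 higher (Cul1, Cul2, Cul3 and Cul4b) and 2 lower (Cul7 and Cul9). The family's median transcript GC was 42.5%, against 50.2% over all genes. Cul3, the scaffold for BTB-Kelch receptors, was by far the most abundant, at 92.3 CPM per kb of exon in WT and 196 in C2-/-. Its log2 values were 8.47, 8.73, 8.48 and 9.57 in WT and 9.76, 9.83 and 10.10 in C2-/-, a difference of 1.08 ± 0.26 (SE; adjusted p = 0.00774). All C2-/- values were above all WT values, and WT replicate 4 was the nearest to them. After GC correction the Cul3 difference was -0.16 and was not called.

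Cul1, the scaffold for F-box receptors, had 6.89, 6.92, 6.88 and 7.0 in WT and 7.81, 7.84 and 7.65 in C2-/-, which is 1.79-fold higher (adjusted p = 0.00148). Here WT replicate 4 lay with the other WT libraries. Cul2, which carries the Vhl receptor, ranged from 6.05 to 7.16 in WT and from 7.45 to 7.49 in C2-/-, a difference of 1.09 ± 0.26 (adjusted p = 0.00728). Cul4b rose most, from 4.15, 3.89, 3.88 and 3.78 in WT to 5.46, 5.94 and 5.37 in C2-/-, which is 3.17-fold (adjusted p = 0.000664). Its close relative Cul4a differed by 0.44 (adjusted p = 0.03), below the fold limit, with no overlap between the groups. After GC correction the differences of Cul1, Cul2 and Cul4b were 0.21, 0.06 and 0.69, and none was called.

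Cul5, the scaffold for Asb receptors, had 6.84, 6.91, 6.69 and 7.01 in WT and 7.03, 6.97 and 7.22 in C2-/-. The groups overlapped, and the difference of 0.21 was not called (adjusted p = 0.276). After GC correction it was -0.98 (adjusted p = 0.00261), the only cullin called there. Cul7 and Cul9 are large relatives that act in complexes of their own. Cul9 had 4.90, 5.00, 4.93 and 3.85 in WT and 2.59, 3.14 and 2.01 in C2-/-, which is 4.27-fold lower (adjusted p = 0.0022), and -0.44 after GC correction. Cul7 had 11 reads at most in C2-/- and 0 in C2-/- replicate 2, with a difference of -2.45 (adjusted p = 0.0452). Its call was lost without WT replicate 1, 2 or 3 or without C2-/- replicate 2, and the difference ran from -3.07 to -1.24 over the 7 fits that left out 1 library. After GC correction it was -0.86 and was not called.

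**Figure D4:**
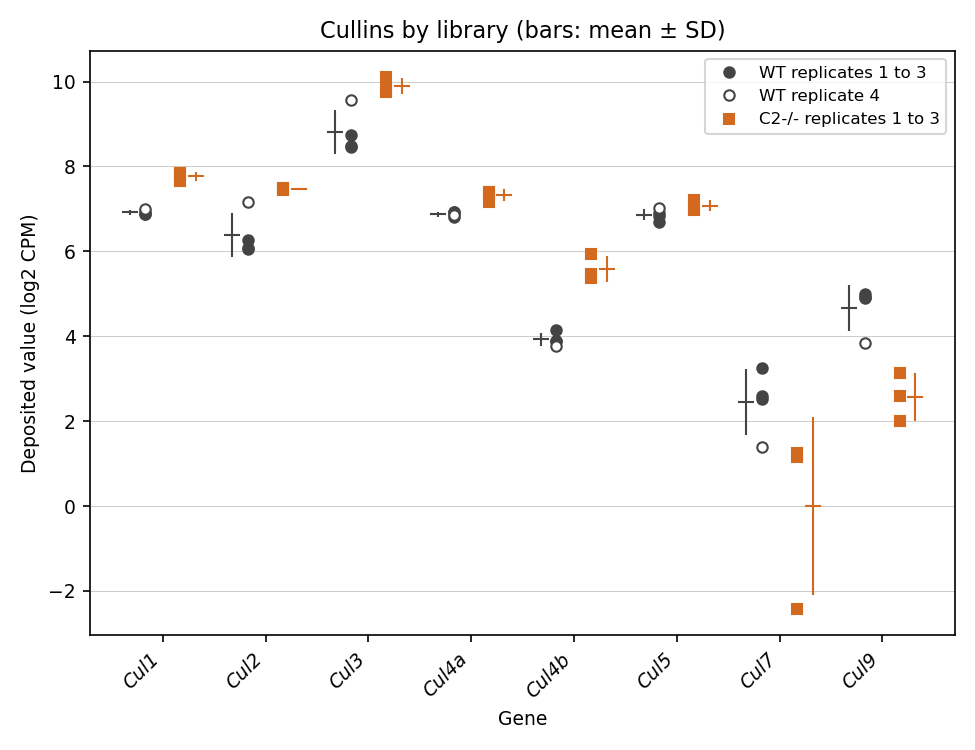
Deposited log2 CPM values (vertical axis) of the 8 cullins by library; grey circles are WT, with replicate 4 open, orange squares are C2-/-, and the bars give mean ± SD (n = 4 and n = 3). Cul1, Cul2, Cul3 and Cul4b lie higher in all 3 C2-/- libraries than in any WT library, and Cul7 and Cul9 lie lower.

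The other parts of the cullin ligases were read from lists of named genes. Of 12 measured core genes (RING proteins, linkers and ubiquitin-conjugating enzymes), 6 were higher and 4 lower (83.3% called, against 45.2% of all genes). The elongin C gene, labelled Tceb1, rose by 1.23 (adjusted p = 0.00146), but differed by -0.05 after GC correction and was not called there. Elongin B, labelled Tceb2, fell by 0.60 (adjusted p = 0.0189), a call lost without WT replicate 4 or C2-/- replicate 3, and was called higher after GC correction (0.77). These genes make the pair that ties Asb proteins to Cul5. Rnf7, the RING partner of Cul5, rose by 0.85 (adjusted p = 0.0458), with WT replicate 4 (7.30) inside the C2-/- range of 6.83 to 7.68. Its call was lost without WT replicate 1, 2 or 3 or C2-/- replicate 2 or 3, and its GC-corrected difference of 0.47 was not called. Rbx1, the RING partner of the other cullins, differed by 0.26 (adjusted p = 0.176). The Cul4 linker Ddb1 fell by 1.61 (adjusted p = 0.000414), and by 1.05 after GC correction, where it was still called.

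Neddylation, the attachment of the small protein Nedd8, switches cullins on. Of its 10 genes, 7 were higher and 2 lower (90.0% called, against 45.2% of all genes). Their median transcript GC was 43.1%, against 50.2% over all genes. Nae1, a subunit of the enzyme that starts the reaction, rose by 1.75 (adjusted p = 0.00127), and by 0.71 after GC correction, where it was called. Nedd8 itself fell by 1.0 (adjusted p = 0.0129), but differed by -0.02 after GC correction. Ube2m, the main Nedd8-conjugating enzyme, fell by 0.92 (adjusted p = 0.00293) and was called higher after GC correction (1.05). The Nedd8-adding cofactor Dcun1d2 was higher both as deposited (0.86) and after correction (1.08), but lost the first call without C2-/- replicate 2.

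The COP9 signalosome removes Nedd8, and Cand proteins swap the receptors. Of these 12 genes 3 were higher and 4 lower (58.3% called, against 45.2% of all genes). Cops7b fell by 1.85 (adjusted p = 0.0103), and by 1.98 after GC correction. Cops2 rose by 1.41 (adjusted p = 0.000749), but differed by 0.04 after correction. Of 23 measured receptors without a family symbol, such as Keap1 and Crbn, 4 were higher and 3 lower (30.4% called). After GC correction the counts were 2 higher and 2 lower in the core and 3 and 0 in neddylation. They were 1 and 2 in the COP9 list, and 1 and 1 among these receptors. The shares called were then 33.3%, 30.0%, 25.0% and 8.70%, against 20.6% of all genes.

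The Klhl family of BTB-Kelch receptors had 13 of 31 members called (41.9%, against 45.2% of all genes), 5 higher and 8 lower. After GC correction 8 of 30 were called, 3 higher and 5 lower. After median centring, 7 were higher and 5 lower. The family summed to 2398 to 2681 CPM in WT and 2853 to 3610 CPM in C2-/-, so its total lay higher in every C2-/- library while more members fell than rose. Klhl31 alone made up 25.9% to 41.4% of that sum in WT and 47.9% to 55.5% in C2-/-.

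Klhl41, which protects thin filament proteins, was the most abundant member of all per kb of exon, with 294 CPM per kb in WT and 319 in C2-/-. Its values were 9.53, 9.65, 9.46 and 9.52 in WT and 9.89, 9.75 and 9.33 in C2-/-. The groups overlapped, and the difference was 0.11 ± 0.17 (adjusted p = 0.599). It was -0.17 after quantile normalization and -0.42 after GC correction, uncalled in both.

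Klhl40, the partner of Klhl41 in nemaline myopathy, fell. Its values were 6.98, 7.23, 7.02 and 5.89 in WT and 5.04, 3.42 and 3.83 in C2-/-, which is 6.44-fold lower (adjusted p = 0.00104). All C2-/- values were below all WT values. After GC correction the difference was -1.08 ± 0.27 (adjusted p = 0.0208), with WT at 5.58 to 6.44 and C2-/- at 4.71 to 5.58. The groups then lay side by side with almost no gap.

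Klhl33, a muscle-enriched member of little-known substrates, fell by nearly the same amount with and without GC correction. Its values were 5.66, 5.28, 6.06 and 5.35 in WT and 2.22, 1.97 and 2.88 in C2-/-, which is 9.38-fold lower (adjusted p = 0.000228). WT replicate 4 lay among the other WT libraries here. After GC correction the difference was -3.06 (adjusted p = 0.000556), with WT at 5.18 to 5.95 and C2-/- at 2.16 to 2.97. Klhl33 transcripts have a GC content of 50%.

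Klhl31, a muscle receptor that targets filamin-C, rose. Its values were 9.40, 9.37, 9.28 and 10.12 in WT and 10.63, 10.97 and 10.43 in C2-/-, which is 2.20-fold higher (adjusted p = 0.00367). WT replicate 4 again lay between the other WT libraries and C2-/-. The GC-corrected difference was 0.63 (adjusted p = 0.0569). Klhl38 had 5.71, 5.66, 5.72 and 5.96 in WT and 6.55, 6.05 and 6.13 in C2-/-, with no overlap. Its difference of 0.48 was not called as deposited (adjusted p = 0.0547) but was 1.27 after GC correction (adjusted p = 0.00251).

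Klhl21, which acts with Cul3 in cell division and signalling, was 3.49-fold lower (adjusted p = 0.000686), but its GC-corrected difference was -0.20. Klhl22 fell from 5.02, 4.86, 4.91 and 4.08 in WT to 3.08, 3.07 and 2.79 in C2-/- (adjusted p = 0.00159) and was among the 15. Klhl30, expressed in heart and skeletal muscle, had 7.17, 7.31, 7.07 and 5.70 in WT and 6.30, 5.72 and 5.38 in C2-/-. WT replicate 4 lay inside the C2-/- range, and the GC-corrected difference turned to 0.36. Its call (-1.01, adjusted p = 0.0488) was lost without WT replicate 1, 2 or 3 or C2-/- replicate 2 or 3.

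The largest rise in the family was in Klhl5, from 2.30, 2.30, 2.44 and 0.95 in WT to 4.00, 3.99 and 4.04 in C2-/-, which is 4.04-fold (adjusted p = 0.00417). WT replicate 4 was here the farthest from C2-/-. Klhl4 rose 3.51-fold (adjusted p = 0.00786), with a GC-corrected difference of 0.62 that was not called. Klhl20, which marks proteins of autophagy for destruction, rose 2.41-fold (adjusted p = 0.0021) and was among the 15. Klhl7 was higher and Klhl8, Klhl12 and Klhl17 were lower, and each lost its call without WT replicate 1, 2 or 3. Klhl12 also lost it without C2-/- replicate 1 or 2 and under voom (-0.61), thinning (-0.65), median centring (-0.50) and quantile normalization (-0.59). After GC correction Klhl12 was called (-0.90), Klhl7 (-0.20) and Klhl8 (-0.50) were not, and Klhl17 had no annotated GC content. The 18 uncalled members had differences of -2.55 to 1.01, and in 10 of them the WT mean was below 3 on the log2 scale.

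The Kbtbd family had 3 of 8 members called (37.5%, against 45.2% of all genes), 2 higher and 1 lower. Kbtbd3 rose from 2.82, 2.83, 2.75 and 1.91 in WT to 4.60, 4.70 and 4.78 in C2-/-, which is 4.33-fold (adjusted p = 0.001), but its GC-corrected difference of 0.86 was not called. Kbtbd7 had 3.44, 3.24, 2.98 and 3.63 in WT and 4.76, 4.74 and 5.25 in C2-/-, which is 3.01-fold higher (adjusted p = 0.00165), and it was the family's only call after GC correction. Both genes lay above all WT values in every C2-/- library.

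Kbtbd13, another nemaline myopathy gene, had 4.36, 4.44, 5.08 and 3.52 in WT and 2.32, 3.56 and 3.20 in C2-/-. The groups overlapped through WT replicate 4, and the difference was -1.32 (adjusted p = 0.0258). It was -0.23 after GC correction, and the call was lost without WT replicate 1, 2 or 3 or C2-/- replicate 1. Kbtbd12, a muscle member and the most abundant of the family by CPM in both groups, differed by -0.29 (adjusted p = 0.325). The 5 uncalled members had differences of -0.99 to 0.94.

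The Asb family of SOCS-box receptors had 9 of 16 members called (56.2%, against 45.2% of all genes), 4 higher and 5 lower. After GC correction 6 were called, 2 higher and 4 lower, and after median centring 6 were higher and 4 lower. The family sum of 1671 to 1951 CPM in WT and 1477 to 2043 CPM in C2-/- overlapped, but the members that filled it changed. Asb2 held 50.2%, 46.3%, 45.2% and 31.1% of the Asb reads in WT and 14.0%, 9.48% and 8.39% in C2-/-. Asb5 held 9.92% to 15.5% in WT and 22.8% to 35.0% in C2-/-. Asb15 held 3.39% to 13.1% in WT and 19.9% to 26.8% in C2-/-.

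Asb2, which marks filamins for destruction as muscle cells differentiate, had 9.88, 9.82, 9.75 and 9.02 in WT and 7.84, 7.13 and 7.42 in C2-/-. This was 4.44-fold lower (adjusted p = 0.000323), with WT replicate 4 below the other WT libraries. Its transcripts are 59.4% GC, and the GC-corrected difference of -0.53 was below the fold limit (adjusted p = 0.0273). Per kb of exon, Asb2 had rank 2 among the members in WT (221 CPM per kb) and rank 9 in C2-/- (49.9).

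Asb15, expressed in skeletal muscle, rose from 6.31, 6.05, 6.58 and 7.78 in WT to 8.35, 8.43 and 9.10 in C2-/-, which is 3.85-fold (adjusted p = 0.00266). The GC-corrected difference was 1.20 (adjusted p = 0.0274), with WT at 6.41 to 7.90 and C2-/- at 7.98 to 8.64. The groups did not overlap either way, but WT replicate 4 came close. Asb5, linked to muscle satellite cells and vessel growth, rose from 7.54, 7.79, 7.59 and 8.02 in WT to 8.78, 8.40 and 9.48 in C2-/-, which is 2.22-fold (adjusted p = 0.00443). After GC correction its difference was 0.20 and was not called.

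Asb10, Asb16 and Asb18 fell and were among the 15. Asb10 had 6.77, 7.21, 7.21 and 6.59 in WT and 4.93, 4.40 and 4.78 in C2-/-, which is 4.74-fold lower (adjusted p = 0.000231), and -1.0 after GC correction. Asb16 had 5.50, 5.62, 5.63 and 4.57 in WT and 2.95, 1.67 and 2.51 in C2-/-, which is 7.74-fold lower (adjusted p = 0.000508), and -1.66 after correction. Both were lower in all C2-/- libraries than in any WT library. Asb18 had 3.12, 3.03, 3.43 and 2.84 in WT and 1.37, -2.42 and -0.47 in C2-/-, where the libraries held 7, 0 and 3 reads. Its difference of -3.61 (adjusted p = 0.00459) therefore depends on the 0.5 reads added before the log.

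Asb13 rose 1.85-fold (adjusted p = 0.00592) and was among the 15. Asb8 fell 1.59-fold (adjusted p = 0.00971) and Asb7 rose 1.74-fold (adjusted p = 0.0401), and neither was called after GC correction. The Asb7 call was lost without WT replicate 1, 2 or 3 or C2-/- replicate 1 or 3. Asb11, a muscle and heart member, had 7.27, 7.10, 7.27 and 7.31 in WT and 7.94, 7.84 and 7.54 in C2-/-, a difference of 0.54 (adjusted p = 0.0179) below the fold limit. Asb12 and Asb14 differed by -0.21 and 0.16 and were not called. Uncalled members spanned -1.30 to 0.61.

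**Figure D5:**
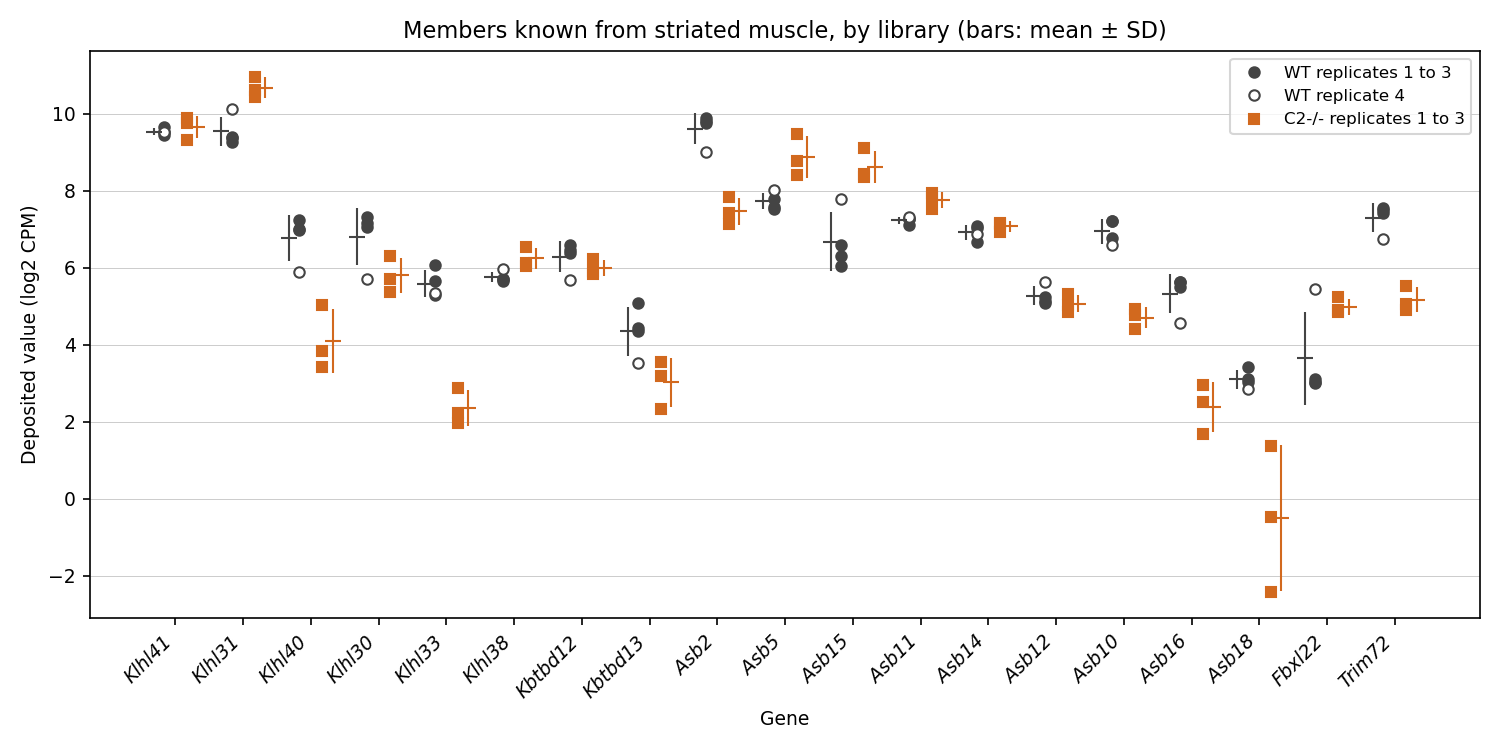
Deposited log2 CPM values (vertical axis) by library of the 19 members known from striated muscle; grey circles are WT, with replicate 4 open, orange squares are C2-/-, and the bars give mean ± SD (n = 4 and n = 3). Klhl33, Klhl40, Asb2, Asb10, Asb16, Asb18 and Trim72 lie lower in every C2-/- library than in any WT library. Klhl31, Klhl38, Asb5, Asb11 and Asb15 lie higher, while Klhl41 and the others overlap.

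Taking the 19 muscle members as a group, 3 were higher, 9 lower and 7 not called, beside 20.2% higher and 25.0% lower over all genes. Their median difference was -0.29, against -0.14 over all genes. After GC correction 2 were higher and 5 lower, beside 12.3% and 8.33% over all genes, with a median of -0.23. Trim32, a muscular dystrophy ligase described below, was called higher as deposited and after GC correction and is not among the 19. Genes of proteins known as substrates or partners of these receptors were read beside them. Of 14 measured 4 were higher and 6 lower, or 2 higher and 1 lower after GC correction. The shares called were 71.4% and 21.4%, against 45.2% and 20.6% of all genes. Neb and Lmod3, the nebulin and leiomodin that Klhl40 and Klhl41 protect, rose by 1.14 (adjusted p = 0.0156) and 1.01 (adjusted p = 0.00208). After GC correction both differed by 0.85, where Lmod3 was called and Neb was not (adjusted p = 0.0753), and Neb also lost its call without WT replicate 1 or 3. Flnc, the muscle filamin, fell by 2.03 (adjusted p = 0.000302), and its GC-corrected difference was -0.53. Irs1, an insulin signalling protein, rose by 1.46 (adjusted p = 0.000666), and by 1.69 after correction.

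The Fbxo family of F-box receptors had 9 of 23 members called (39.1%, against 45.2% of all genes), 5 higher and 4 lower. After GC correction 7 were called, 6 higher and 1 lower, and after median centring 8 were higher and 4 lower. Fbxo22, which targets chromatin and p53-related proteins, rose from 4.95, 4.98, 4.88 and 5.84 in WT to 6.36, 6.97 and 6.47 in C2-/-, which is 2.72-fold (adjusted p = 0.00242). The GC-corrected difference was 1.52 (adjusted p = 0.0066). Fbxo33 rose from 2.32, 2.24, 2.33 and 2.22 in WT to 3.65, 3.47 and 3.95 in C2-/-, which is 2.66-fold (adjusted p = 0.00576). Its 4 WT values were nearly the same, and it was among the 15.

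Fbxo31, which targets cyclin D1 for destruction, was the leading member of its family by CPM in WT. Its values were 7.80, 7.75, 7.69 and 7.16 in WT and 5.85, 5.11 and 5.67 in C2-/-, which is 4.16-fold lower (adjusted p = 0.000302). Its share of the Fbxo reads went from 18.0% to 28.9% in WT to 3.90% to 7.27% in C2-/-. The GC-corrected difference was -0.49 and below the fold limit. Fbxo3 led the family by CPM in C2-/-, with a difference of 0.03 (adjusted p = 0.901) that turned to -0.66 after GC correction (adjusted p = 0.0284).

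Fbxo11 and Fbxo8 rose by 1.41 (adjusted p = 0.000919) and 1.34 (adjusted p = 0.0115), and neither was called after GC correction. The Fbxo8 call was also lost without C2-/- replicate 3. Fbxo9 was 1.66-fold higher (adjusted p = 0.0481), and its call held in only 1 of the 7 fits without a library, while after GC correction it was called at 1.24. Fbxo44 and Fbxo46 had the largest falls, -2.44 and -2.53, at C2-/- counts of 13 reads or fewer. Their GC-corrected differences of -1.04 and -1.72 were not called, and Fbxo46 lost its call without WT replicate 1 or 3. Over the pooled reads, Fbxo46 was 6.40 times as abundant in WT as in C2-/- (95% interval 2.69 to 20.0, counting error only). Fbxo21 differed by -1.69 (adjusted p = 0.0196), with WT replicate 4 (3.31) inside the C2-/- range of 1.48 to 3.48. It was -1.0 and uncalled after GC correction, and its call was lost without WT replicate 1 or 2 or C2-/- replicate 2 or 3. Fbxo7, linked to removal of damaged mitochondria, differed by -0.57 and was not called (adjusted p = 0.202).

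The Fbxl family had 8 of 16 members called (50.0%, against 45.2% of all genes), 4 higher and 4 lower. After GC correction 3 were called, all higher. Fbxl17, which checks the quality of BTB proteins, was the leading member by CPM in both groups, with 6.91, 7.23, 7.01 and 7.59 in WT and 7.96, 7.90 and 7.73 in C2-/-. It was 1.60-fold higher (adjusted p = 0.0142) and 0.69 after GC correction (adjusted p = 0.0284), but was not called after quantile normalization.

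Fbxl5, the iron-sensing receptor, rose 1.64-fold (adjusted p = 0.00612), and its GC-corrected difference turned to -0.20. Its substrate Ireb2 rose by 1.37 (adjusted p = 0.000671), and differed by 0.17 after correction, without a call. Fbxl4, which sits at mitochondria and restrains mitophagy, rose 1.85-fold (adjusted p = 0.00518), with 0.48 after correction. Fbxl5 and Fbxl4 were higher in all C2-/- libraries than in any WT library.

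Fbxl22, which acts at the Z-disc, had 3.01, 3.03, 3.11 and 5.46 in WT and 4.84, 5.23 and 4.90 in C2-/-. WT replicate 4 lay above every C2-/- library, and the difference of 1.34 was not called (adjusted p = 0.0671). It was called higher under voom (1.63) and after median centring (1.5), and was 1.71 and uncalled after GC correction. The called falls were all at low counts. Fbxl6 had 7 reads at most in C2-/-, Fbxl15 had 7, Fbxl19 had 3 and Fbxl18 had 1. The pooled reads of Fbxl18 gave a WT to C2-/- ratio of 18.9 (95% interval 3.31 to 755). None of these 4 was called after GC correction, and Fbxl15 and Fbxl19 lost the call without WT replicate 1, 2 or 3, as Fbxl15 did without C2-/- replicate 1 or 2.

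The Fbxw family had 4 of 8 members called, all lower, under limma, voom, median centring and quantile normalization, with 3 lower after thinning the reads of each library to the smallest total. Under limma 45.2% of all genes were called. The family's median transcript GC was 55.7%, against 50.2% over all genes. After GC correction 1 member was called. Fbxw5 had 6.63, 6.78, 6.74 and 6.32 in WT and 5.07, 4.50 and 4.60 in C2-/-, a difference of -1.89 ± 0.20 (adjusted p = 0.000294). Fbxw8, a partner of Cul7, had 5.16, 5.43, 5.45 and 4.65 in WT and 2.95, 3.01 and 3.39 in C2-/-, a difference of -2.06 ± 0.27 (adjusted p = 0.000576). Neither gene overlapped between groups, and the GC-corrected differences were -0.51 and -0.64 without a call. Fbxw4 fell by 1.53 (adjusted p = 0.00841) and was 0.16 after correction.

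Fbxw9 had 1, 0 and 0 reads in C2-/- against 3 to 55 in WT, and its pooled ratio of WT to C2-/- was 28.3 (95% interval 4.99 to 1120). Its GC-corrected difference of -1.80 was not called. Fbxw7, which marks Myc and cyclin E for destruction, differed by 0.25 (adjusted p = 0.415), and by -0.08 after GC correction. Fbxw11, a receptor for beta-catenin, differed by -0.11 (adjusted p = 0.6), or by 0.05 after median centring. Fbxw2 was the family's single call after correction (-0.74, adjusted p = 0.0183), against -0.33 as deposited. The family sum was 310 to 367 CPM in WT and 206 to 223 CPM in C2-/-.

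The Trim family had 10 of 30 members called (33.3%, against 45.2% of all genes), 4 higher and 6 lower. After GC correction 5 were called, 4 higher and 1 lower, and after median centring 4 were higher and 3 lower. Trim72, also known as MG53, patches tears in the muscle membrane. Its values were 7.49, 7.42, 7.55 and 6.75 in WT and 5.53, 4.91 and 5.06 in C2-/-, a difference of -2.13 ± 0.24 (adjusted p = 0.000302). The GC-corrected difference of -0.55 was below the fold limit (adjusted p = 0.028). Dysf, the membrane repair protein that works with Trim72, fell by 1.67 (adjusted p = 0.000294), with -0.57 after correction.

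Trim24, a reader of chromatin marks, rose from 6.02, 6.40, 6.12 and 6.92 in WT to 7.48, 7.45 and 7.63 in C2-/-, which is 2.22-fold (adjusted p = 0.00259). It was 1.17 after GC correction (adjusted p = 0.00658), nearly the same as before it, and led the family by CPM in C2-/-. Its relatives Trim28 and Trim33 also act on chromatin. Trim28 fell by 1.24 (adjusted p = 0.00162), but its GC-corrected difference was 0.39. Trim33 was 1.64-fold higher (adjusted p = 0.031), with 0.05 after correction, and lost its call without WT replicate 1, 2 or 3 or C2-/- replicate 2.

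Trim32, the ligase mutated in a limb-girdle muscular dystrophy, had 3.70, 3.45, 3.43 and 4.36 in WT and 4.66, 5.07 and 4.41 in C2-/-. All C2-/- values were above all WT values, although WT replicate 4 and C2-/- replicate 3 nearly met. The difference was 0.98 (adjusted p = 0.0247), and 1.45 after GC correction (adjusted p = 0.0144). The call was lost without WT replicate 1, 2 or 3 or C2-/- replicate 1 or 2. Trim2 rose 3.75-fold (adjusted p = 0.011), and its GC-corrected difference of 1.44 was not called (adjusted p = 0.0625).

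Trim3 fell by 1.53 (adjusted p = 0.0149) and Trim35 by 0.64 (adjusted p = 0.0108), and both were uncalled after correction. Trim35 also lost its call without WT replicate 3. Trim11 and Trim41 were lower, but both lost the call without WT replicate 1, 2 or 3, and their differences turned to 0.38 and 0.48 after GC correction, uncalled. The antiviral ligases Trim21 and Trim25 differed by -1.49 (adjusted p = 0.244) and -0.61 (adjusted p = 0.179) and were not called. Leukocyte genes summed to 38.7 to 51.9 CPM in WT and 26.9 to 56.4 CPM in C2-/-, with 0 of 6 called. Interferon-response genes summed to 60.5 to 95.8 CPM in WT and 55.3 to 68.1 CPM in C2-/-, with 2 of 13 lower. Trim12c and Trim30a have near-identical neighbours, so their reads are uncertain, and neither was called.

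The members with the highest levels per kb of exon were much the same in both groups. Of the 10 highest in WT, 7 were among the 10 highest in C2-/-. Klhl41 was first in both. Trim72 went from rank 6 to 30, Klhl21 from 9 to 34, Klhl40 from 12 to 53, and Asb15 from 21 to 5. All members together summed to 7679 to 8283 CPM in WT and 9062 to 9590 CPM in C2-/- as deposited, which do not overlap. No such sum was made after GC correction or beside other gene sets. CPM are counts relative to a total, in which the fast fibre genes held less in C2-/-, as given above. The part of this in the higher sum was not tested. Cullins summed to 820 to 1305 CPM in WT and 1597 to 1842 CPM in C2-/-, Klhl members to 2398 to 2681 and 2853 to 3610 CPM. Fbxl members summed to 347 to 523 CPM in WT and 612 to 656 CPM in C2-/-. The Fbxw and Trim sums lay lower in every C2-/- library, and the other family sums overlapped.

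The WT library of low depth bears on these differences. Against WT replicate 4 alone, 61 of the 62 called members kept their sign, and for 19 of them that library's value was closer to C2-/- than to the rest of WT. The median size of the difference of called members was 1.07 (log2) against WT replicate 4 and 1.67 against WT replicates 1 to 3. With the reads of each library thinned to the smallest total, the members gave 26 higher and 31 lower calls, beside 2258 and 2872 over all genes. A total of 18 members had 0 reads in some C2-/- library, and 8 of these were called lower.

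The scaling of the libraries also decided some calls near the limits. Besides Klhl12, median centring ended the calls of Asb8, Cul7, Klhl8, Klhl30, Trim11, Trim35 and Trim41. Members it newly called higher included Asb4, Asb11, Cul4a, Fbxl22, Fbxo4, Fbxo28, Fbxo45 and Klhl38. Quantile normalization ended those of Fbxl5, Fbxl15, Fbxo9, Klhl7, Klhl17 and Trim11, and thinning those of Asb7, Fbxw9, Klhl30, Trim11 and Trim33. Among the other genes of the pathway, Tceb2, Arih2 and Cand2 lost their calls after median centring, and Rnf7, Cops3 and Cops5 after quantile normalization. The substrate gene Myc lost its call under both and after thinning.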

How the data were processed

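Oligo(dT)-selected RNA of TA muscle was sequenced as DNA nanoballs. The authors aligned reads to GRCm38.p6 with HISAT, counted them per gene with featureCounts 1.5.2, scaled libraries with edgeR's TMM factors and deposited log2 CPM values, 1 column per library. Their second table, with fold changes, p-values and related statistics of C2-/- against WT, was not used. The filter on genes, the use of strand and multiply mapped reads are not given in the sources used here.

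Every deposited log2 value was the log2 of a whole read number plus 0.5, scaled (100.0% whole within 0.01 reads), and these reads gave depths, CPM and ratios with exact 95% intervals, which cover counting error only. Differences were tested on the deposited values of all 12239 genes with limma 3.58.1 (lmFit and eBayes with trend, R 4.3.3), two-sided, with Benjamini-Hochberg adjustment. A check on simulated counts had no GC response tied to genotype and no outlying WT library, so it does not cover these features. Transcript GC and exon length came from GENCODE vM21 (GRCm38), and gene positions and promoters from RefSeq. Alternatives were voom, 2 reads added before the log, a mean log2 value of at least 3, median centring, quantile normalization, GC correction, thinning, the replicate block, no fold limit, and leaving out each library.

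Members named are those with a known role in muscle or their family, the 2 largest non-overlapping rises and falls and the 2 highest WT levels per family, and those called as deposited, after GC correction and without any 1 library. Other members are named where counts are broken down, after their values were seen. Klhl3, also listed, was not analysed here, and 1 listed member is not reported here. The members and lists were chosen with earlier results of these data known.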

Additional observations from a re-analysis of the deposited data

Results flagged for a closer look

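In 14 of 60 values tested, 1 of the 4 WT libraries stood apart from the others by Dixon's criterion, where chance gives about 1 in 20 (3.0). In all 14 it was WT replicate 4. Its depth was 4683853 reads, against at least 14929214 in the other WT libraries. That depth lay within the C2-/- range of 2613277 to 4917936. In 11 of the gene values it lay toward or beyond the C2-/- libraries. It was low for Cul9 (3.85), Klhl30 (5.70), Asb2 (9.02), Asb16 (4.57), Fbxo31 (7.16), Trim72 (6.75), Trim25 (3.17) and Fbxl15 (0.77), and high for Klhl31 (10.12), Fbxl22 (5.46) and Fbxo22 (5.84). For Klhl5 (0.95) and Kbtbd3 (1.91) it lay away from C2-/-, below the other WT libraries. All are deposited log2 values. The part of depth in these values was not tested.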

How the results depend on the processing

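The GC correction, alone or with the replicate block, moved the most results. It gave 13 members lower instead of 34, and 1 Cul, 8 Klhl, 1 Kbtbd, 3 Fbxl, 1 Fbxw and 5 Trim members called. Of the 58 named members, 22 kept their direction and side of the threshold under it, 26 kept the direction but lost the call, 1 (Klhl38) kept it and gained a call, and 9 reversed. Of those 9, Cul3, Klhl30, Fbxl5 and Trim28 also lost a call, and Cul5 and Fbxo3 were called in the new direction. Same-numbered WT and C2-/- libraries did not deviate together (r = 0.053, -0.064 and -0.053), so they share only a number. The replicate block gave 28 members higher and 38 lower. With both the replicate block and GC correction there were 16 higher, 15 lower, and 1 Cul, 7 Klhl, 1 Kbtbd, 5 Fbxo, 4 Fbxl, 1 Fbxw and 6 Trim members called. The Fbxl count was 4 when genes averaging under 3 (log2) were left out, so that fewer were tested, and 5 after quantile normalization. Directions reversed after GC correction, without and with the replicate block, for Cul5 (-0.98, -1.02), Klhl41 (-0.42, -0.47), Klhl30 (0.36, 0.09), Asb14 (-0.16, -0.19), Fbxl5 (-0.20, -0.24), Fbxw7 (-0.08, -0.15), Trim28 (0.39, 0.41) and Fbxo3 (-0.66, -0.69), for Cul3 without the block (-0.16) and for Trim35 with it (0.01). They also reversed after quantile normalization for Klhl41 (-0.17), Asb14 (-0.02) and Fbxo3 (-0.17), and after median centring for Fbxw11 (0.05). The cause of these shifts was not tested. Leaving out 1 library gave 23 to 29 members higher, 22 to 39 lower, 5 to 6 Cul, 8 to 13 Klhl, 2 to 3 Kbtbd, 8 to 10 Asb, 6 to 11 Fbxo, 6 to 10 Fbxl, 4 Fbxw and 5 to 12 Trim calls, and -12.26 to -11.19 for Mybpc2. The count lower was 22 without WT replicate 1 or 3, the Klhl count 8 without WT replicate 1, 2 or 3, and the Trim count 6 without WT replicate 1 or 2 and 5 without WT replicate 3. It also reversed Klhl41 (-0.00397 to 0.28), Fbxw7 (-0.01 to 0.46) and Fbxo3 (-0.19 to 0.15). Depth limits members with few C2-/- reads, such as Fbxw9 and Fbxl18.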
